A study of Mus musculus with 32 samples.

Results

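Mouse 2-cell embryos of old mothers were compared with those of young mothers. The comparison uses 4 of the 32 libraries of the series, chosen by their titles. The labels describe 2 libraries (rep 1 and rep 2) of embryos from 12-month females that received no treatment, called 12-month below. The other 2 come from females of 6-8 weeks and were made from embryos given the solvent DMSO, called vehicle below. All 4 are labelled WT and their titles name in vitro fertilization; the series' design text says that drug-treated embryos were cultured in KSOM medium. Age and vehicle change together in these groups and cannot be told apart. No strain is given in the labels, so a difference of strain between the old and young mothers cannot be told apart from age either. Nor do they say how many embryos or mothers a library pools, and p values therefore reflect just the spread of these libraries, which may be technical. The same rows were set beside 6 libraries of 2-cell embryos of young females (6-8 weeks) treated with aphidicolin, cycloheximide or MG132. They were also set beside 4 libraries of untreated WT MII oocytes, the mature unfertilized eggs, 2 from 8-week and 2 from 12-month females. A further 2 libraries of 4-cell embryos given DMSO, from females of 6-8 weeks, served with the 8-week oocytes to sort genes by stage.

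An egg carries a store of maternal RNA that supports the first cleavage. In the mouse, most of this store is degraded by the 2-cell stage while the embryo's own genome is switched on, with a burst of genes such as the Zscan4 cluster and the endogenous retrovirus MERVL. Eggs of old females are known for errors in chromosome segregation, altered mitochondria and altered maternal RNA, and the 2-cell embryo inherits both the RNA and the mitochondria of the egg.

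The starts of 4 genes are shown as examples that passed in embryos and in oocytes: Ptpro and Ddx4 were high in the 12-month embryos, and the neighbours Btla and Cd200 were low. Each sequence runs from 250 bases before to 50 after the annotated start (RefSeq, GRCm38.p6, the build of mm10), 5′ to 3′ on the gene's strand. Capitals mark matches, on either strand, to the E-box CACGTG, the GC box GGGCGG, the CCAAT box CCAAT or the TATA box TATAAA.
Ptpro (chr6:137252049-137252348, + strand): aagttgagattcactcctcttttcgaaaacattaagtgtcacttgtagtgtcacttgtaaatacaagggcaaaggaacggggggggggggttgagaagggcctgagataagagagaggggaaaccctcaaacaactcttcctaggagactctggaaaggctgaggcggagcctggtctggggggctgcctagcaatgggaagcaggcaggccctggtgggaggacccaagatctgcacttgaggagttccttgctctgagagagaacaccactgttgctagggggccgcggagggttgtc
Ddx4 (chr13:112652261-112652560, - strand): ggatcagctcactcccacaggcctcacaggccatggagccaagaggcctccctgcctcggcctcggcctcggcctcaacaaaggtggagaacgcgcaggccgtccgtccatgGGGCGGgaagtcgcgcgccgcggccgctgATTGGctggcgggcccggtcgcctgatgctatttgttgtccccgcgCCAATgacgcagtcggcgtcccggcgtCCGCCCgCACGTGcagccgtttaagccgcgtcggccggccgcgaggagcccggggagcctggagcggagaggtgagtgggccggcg
Btla (chr16:45224087-45224386, + strand): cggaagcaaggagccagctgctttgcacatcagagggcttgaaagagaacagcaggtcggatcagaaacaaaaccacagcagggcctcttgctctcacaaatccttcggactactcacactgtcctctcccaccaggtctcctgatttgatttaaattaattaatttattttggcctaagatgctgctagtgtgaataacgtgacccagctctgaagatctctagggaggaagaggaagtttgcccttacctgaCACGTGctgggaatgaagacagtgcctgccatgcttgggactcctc
Cd200 (chr16:45409004-45409303, - strand): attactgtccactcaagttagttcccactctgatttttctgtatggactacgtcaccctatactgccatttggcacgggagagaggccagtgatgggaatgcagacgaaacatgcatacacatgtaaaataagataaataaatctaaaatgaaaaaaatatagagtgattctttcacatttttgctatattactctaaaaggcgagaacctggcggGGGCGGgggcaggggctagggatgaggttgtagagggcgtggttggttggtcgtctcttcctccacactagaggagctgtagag
The Ptpro start holds none of these motifs and 5 CpG dinucleotides, against a median of 7 over the 32851 promoters of the table. Ddx4 differs in composition, with 38 CpG, 1 E-box, 2 GC boxes and 2 CCAAT boxes. Btla holds 5 CpG and 1 E-box, and Cd200 8 CpG and 1 GC box. Of all promoters of this length, 7.15% hold the E-box, 35.66% the GC box, 37.41% the CCAAT box and 13.62% the TATA box. The 2 neighbouring genes that were low together share none of the motifs searched.

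Depth was even in the 4 libraries compared: the 12-month libraries held 28060469 and 28389205 counts and the vehicle libraries 28566215 and 27332143. Fewer genes reached 10 counts at 12 months, 17673 and 18322 against 20044 and 19149 in the vehicle libraries. Of the drug-treated libraries in the test, aphidicolin rep 1 and MG132 rep 1 were shallower, at 14313718 and 14505195 counts. Below, a level is in CPM, read counts scaled to a common library size, and log2 fold changes are 12-month over vehicle with their standard error (SE). A gene passed at a Benjamini-Hochberg adjusted p under 0.05 in edgeR's quasi-likelihood test over all 10 libraries of 2-cell embryos. All 4 libraries carried the marks of the stage. Zscan4d stood at 144 and 169 CPM in the 12-month and 214 and 423 CPM in the vehicle libraries, against 0.102 to 1.60 CPM in MII oocytes. Zfp352 stood at 157 and 121 against 251 and 232 CPM. Markers of the 4-cell stage and later were mixed. Nanog, Sox2, Tead4 and Krt8 were at most 0.897, 1.65, 0.658 and 4.92 CPM in the 4 libraries, and Cdx2 did not reach the count minimum. Dppa5a was present at 53.9 and 43.4 against 41.8 and 104.9 CPM, and Gata3 at 65.9 and 50.6 against 35.35 and 46.3 CPM. Both were also present in MII oocytes, at 47.2 to 83.1 and 124 to 210 CPM.

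Of 22391 genes tested, 272 passed (1.21%), 105 higher (0.469%) and 167 lower (0.746%) in the 12-month embryos, and 3165 had an unadjusted p under 0.05. The genes that passed had moved far: the smallest absolute log2 fold change was 1.39, and 151 had changed at least 8-fold, 113 of them lower and 38 higher. The median was 2.31 among the higher and -4.24 among the lower genes. Many of the lower genes were nearly silent in the older embryos: 73 averaged under 1 CPM there, and 20 had 0 counts in both 12-month libraries. Conversely, 17 of the higher genes averaged under 1 CPM in the vehicle libraries. Protein-coding genes numbered 184, pseudogenes 36 and long noncoding or antisense genes 36. The count rests on few libraries: it was 86 without 12-month rep 1, 109 without 12-month rep 2, 148 without vehicle rep 1 and 183 without vehicle rep 2. All 4 of these fits called 66 of the 272 genes, 13 higher and 53 lower. A fit of the 4 libraries alone called 116 genes, and Btla, Slc14a1, Nfya, Atg10, Mtfr2, Mutyh, Mei4, Lcp2, Vamp3, Ciart, Ins2, Zfp989, Ighg3, H2-T10, Nbea, Mfap1a, Tctex1d1, BB031773 and the mitochondrial genes were not among them.

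The largest changes were sought among genes that passed at 10 CPM or more without overlap of the 12-month and vehicle libraries, leaving out predicted symbols. Among them Ptpro, a receptor-type tyrosine phosphatase, had the largest rise. It stood at 131 and 101 CPM in the 12-month libraries and at 0.699 and 0.172 CPM in the vehicle libraries, and did not exceed 1.59 CPM in any drug-treated library. The groups were wide apart (8.03, SE 1.07, edgeR adjusted p = 0.00338), although the call was lost without either 12-month library. Dph6, an enzyme of diphthamide synthesis, was at 612 and 645 CPM against 7.62 and 14.9 CPM (5.80, SE 0.48, edgeR adjusted p = 0.000365). Its call held without any 1 library, as did that of Leprot, a regulator of leptin receptor trafficking, at 89.0 and 51.5 against 0.826 and 1.90 CPM (5.69). Fam241a did so too, at 27.3 and 30.1 against 0.858 and 0.552 CPM (5.33). Both 12-month libraries were high and both vehicle libraries low for each of these genes.

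Ddx4, the germ-line RNA helicase also called Vasa, was at 323 and 339 CPM in the 12-month libraries and at 25.8 and 24.98 CPM in the vehicle libraries (3.70, SE 0.40, edgeR adjusted p = 0.000907). The drug-treated libraries reached 71.6 CPM at most, so the older embryos lay above every young library. Abcb1b, an efflux pump of the P-glycoprotein family, was at 164 and 105 against 12.7 and 5.62 CPM (3.87), within the range of 16.5 to 204 CPM of the drug-treated embryos. Vmn1r139, a vomeronasal receptor gene, was at 99.0 and 97.6 against 4.57 and 2.73 CPM (4.75). Its family holds near-identical copies, so its reads may be shared with relatives. These 3 genes kept their calls without any 1 library, as did the adhesion gene Jam2, at 113 and 126 against 6.89 and 11.04 CPM (3.74), and the kinesin heavy chain Kif5b, at 217 and 189 against 51.3 and 38.0 CPM (2.19).

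Among the other 6 genes with the largest rises, the calls were less steady. Pgm5, a phosphoglucomutase-like adhesion protein, stood at 92.4 and 89.8 against 3.62 and 1.52 CPM, and lost its call without any 1 of the 4 libraries. Top3a, a DNA topoisomerase (15.7 and 22.7 against 0.889 and 1.21 CPM), Zfp385b (35.9 and 29.9 against 2.54 and 1.83 CPM) and Ciart, a repressor of the circadian clock (22.3 and 11.3 against 0.635 and 1.86 CPM), did likewise. The lymphocyte adaptor Lcp2 was uneven at 12 months, at 12.2 and 49.4 CPM against 0.540 and 0.586 CPM, and held its call only without 12-month rep 1. Vamp3, a vesicle fusion protein, was at 93.7 and 64.4 against 1.91 and 9.56 CPM and lost its call without 12-month rep 1 or vehicle rep 1. In all of these the groups did not overlap, which was a condition of their choice. The same was true of 47.6% of all genes tested.

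Leaving out predicted symbols, the lower genes were led by Btla, an inhibitory receptor of lymphocytes, which had 0 counts in both 12-month libraries and stood at 52.1 and 7.04 CPM in the vehicle libraries. That is at least 493-fold lower, with the 12-month group set to 3 counts in all, and the call was lost without either 12-month library or vehicle rep 1. Lipo2, of the lipase family, was also at 0 in both and at 6.70 and 17.5 CPM in the vehicle libraries, at least 192-fold lower; it overlaps its relative Lipo3, so its counts are uncertain, and its call was lost without either 12-month library. Fcgbp, a mucin-like protein that binds the Fc part of immunoglobulin G, had 1 count at 12 months and 22.3 and 41.9 CPM in the vehicle libraries. Its ratio of vehicle to 12-month counts was 1536, with an exact 95% counting interval from 275 to 60716. Intervals and bounds cover counting error only, because PCR copies of 1 molecule could not be told apart.

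Cd200, a surface glycoprotein that dampens myeloid cells, had counts in every library and kept its call without any 1 of them. It was at 1.41 and 0.310 CPM in the 12-month embryos and at 103 and 140 CPM in the vehicle embryos (-7.16, SE 0.77, edgeR adjusted p = 0.000907). All 6 drug-treated libraries, at 35.8 to 154 CPM, sided with the vehicle. Bfsp1, a filament protein of the lens, was at 0.265 and 0 against 35.4 and 86.2 CPM (-8.86). Zfpm2, a cofactor of GATA factors, was at 1.81 and 0.503 against 46.3 and 45.3 CPM (-5.32), and Dclk1, a microtubule-associated kinase, at 1.41 and 1.93 against 68.3 and 37.1 CPM (-4.97). Slc14a1, a urea transporter, was at 0.176 and 0.774 against 33.3 and 11.04 CPM (-5.50). In these genes each 12-month library was below every young library, and each call held in all 4 fits that left out a library.

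Ighg2b, an immunoglobulin constant-region gene, was at 4.99 and 1.59 CPM against 98.8 and 176 CPM (-5.39), and AY512915 at 4.37 and 2.01 against 136 and 120 CPM (-5.33). Both were low in both 12-month libraries and kept their calls in all 4 fits. Hnrnpa0, an RNA-binding protein, was at 0.618 and 0.503 against 38.3 and 17.7 CPM, but the drug-treated libraries spread from 1.09 to 21.8 CPM and the call was lost without either 12-month library or vehicle rep 1. Genes that kept a fair level also fell. Daam1, a formin that shapes actin, went from 191 and 152 CPM in the vehicle to 21.4 and 17.6 CPM in the 12-month libraries (-3.13, SE 0.30). Trim61 was far more abundant, at 527 and 463 against 2350 and 1731 CPM (-2.04), and lost its call without either 12-month library.

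Of these genes, Ptpro, Dph6, Lcp2, Pgm5, Zfp385b, Abcb1b, Vamp3, Ciart, Jam2, Kif5b, Bfsp1, AY512915, Zfpm2, Dclk1, Lipo2, Daam1 and Trim61 each overlap another annotated gene, whose reads may be part of their counts.

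**Figure D1:**
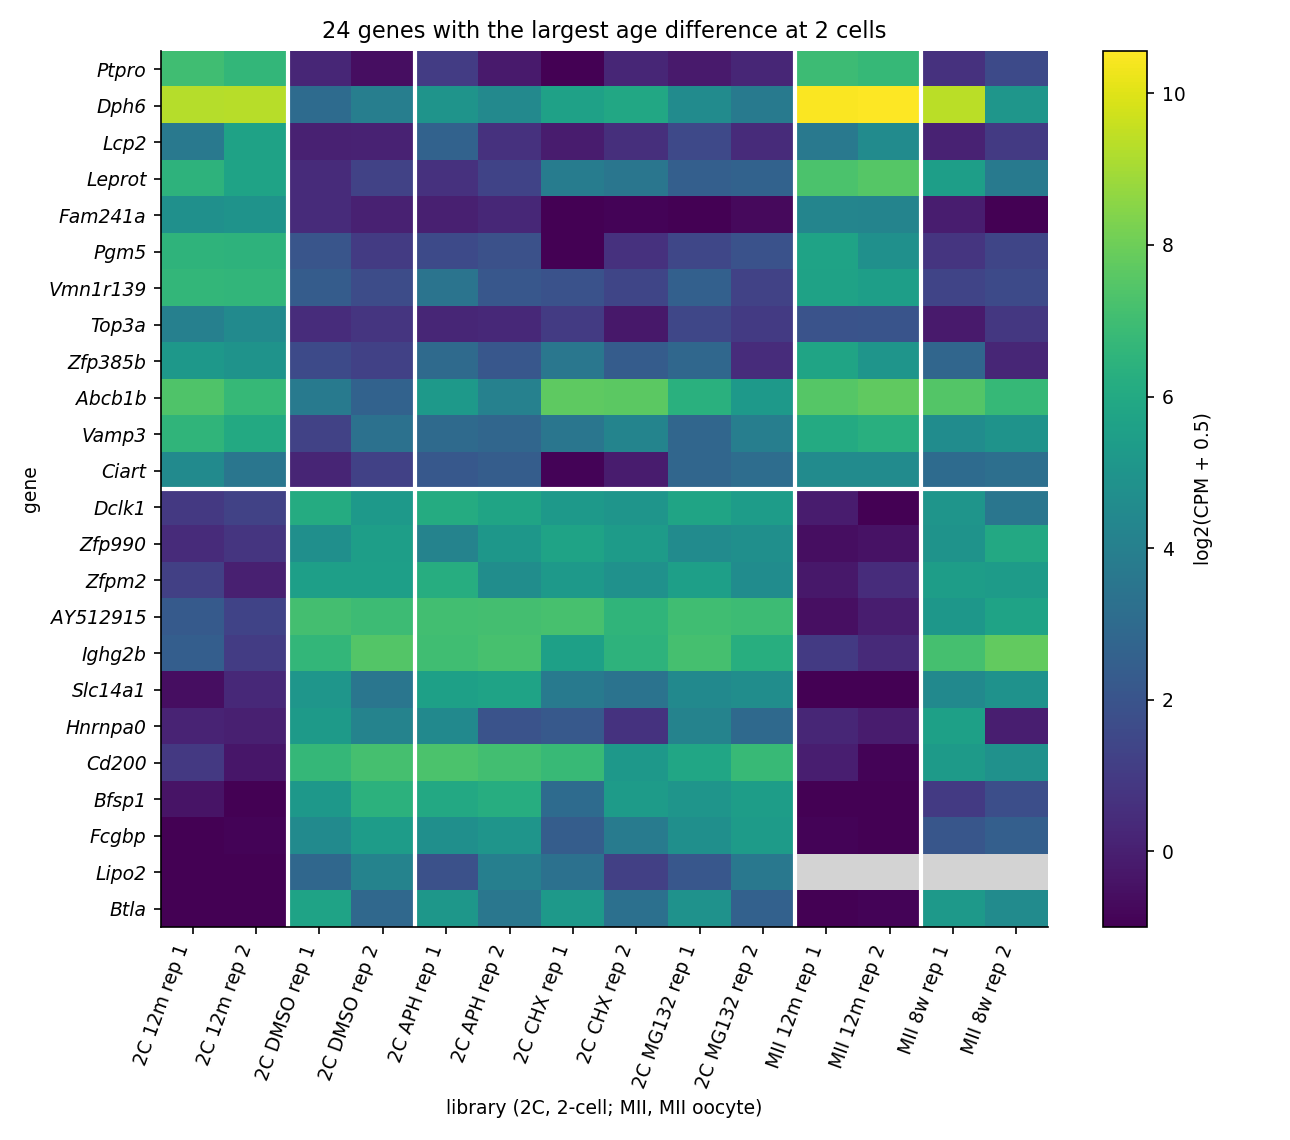
Level as log2(CPM + 0.5) by colour, with 1 row per gene and 1 column per library. Rows are the 12 genes with the largest rise (top) and the 12 with the largest fall (bottom). They were chosen among genes that passed at 10 CPM or more without overlap of the 12-month and vehicle libraries, leaving out predicted symbols. Columns show 2-cell (2C) embryos of 12-month mothers, vehicle (DMSO), aphidicolin (APH), cycloheximide (CHX) and MG132 embryos of young mothers, and MII oocytes of 12-month and 8-week (8w) females; grey marks a gene below the count minimum in oocytes. CPM of embryos and oocytes come from separate fits.

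The 6 drug-treated libraries, which also come from WT females of 6-8 weeks, give a wider view of the young stage. Of the 105 genes that passed as higher, 75 (71.43%) were above all 8 young libraries in both 12-month libraries, against 7.36% of all genes tested. Of the 167 lower genes, 149 (89.22%) were below all 8, against 5.72% of all genes. The 8 include the vehicle libraries that the genes were called against, and the drug libraries entered the estimate of spread in the test. An excess over all genes is thus built in, and these counts are a description only. Among those outside the young range were Ptpro, Ddx4, Dph6, Cd200 and Btla. Abcb1b and Obox2 were inside it.

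The MII oocytes offered the same age contrast before fertilization, in libraries that the 2-cell comparison does not use and without any vehicle. There, 121 of 15083 genes passed (0.802%), 41 higher (0.272%) and 80 lower (0.53%) at 12 months. Of the 272 genes of the 2-cell comparison, 250 were tested in oocytes. Of these, 229 (91.6%) had a fitted difference in the same direction, against 61.4% of all 14886 genes tested in both stages, and 167 did so at an unadjusted p under 0.05. In oocytes the 2-cell higher genes had a median of 1.28 and the lower genes one of -3.50. Both tests called 61 genes, which is 22.43% of the 2-cell and 50.41% of the oocyte calls. All 61 moved the same way, 13 up and 48 down. The overlap moved with single oocyte libraries: it was 132 without 8-week rep 1, 139 without 8-week rep 2, 33 without 12-month rep 1 and 0 without 12-month rep 2, where the oocyte test called no gene. Without any 1 of the 2-cell libraries it was 38 to 51.

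Ptpro was at 119 and 108 CPM in the 12-month oocytes and at 1.08 and 2.56 CPM in the 8-week oocytes (5.97, edgeR adjusted p = 0.00916). Its levels within each age were close to those of the 2-cell embryos, although the scales of the 2 stages were set separately. Ddx4 was at 428 and 396 against 46.3 and 24.5 CPM in oocytes (3.54, edgeR adjusted p = 0.0221), and Vmn1r139 at 49.6 and 44.5 against 2.09 and 2.52 CPM (4.35). The older libraries were high and the younger low for all 3 genes in both stages.

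Btla was at 0 and 0.0341 CPM in the older and 36.0 and 23.6 CPM in the younger oocytes, and Cd200 at 0.476 and 0.0341 against 38.8 and 28.2 CPM. Slc14a1 had 0 counts in both 12-month oocyte libraries and stood at 21.9 and 29.2 CPM in the 8-week ones. Ighg2b was at 1.46 and 0.818 against 140 and 219 CPM, AY512915 at 0.204 and 0.443 against 33.8 and 51.1 CPM, and Zfpm2 at 0.340 and 0.886 against 43.3 and 40.4 CPM. All 6 passed in both stages, in each with the old libraries low. Mtfr2, a regulator of mitochondrial fission, also passed in both: it was at 97.0 and 135 against 27.5 and 35.7 CPM in embryos (1.88) and at 820 and 879 against 23.2 and 12.6 CPM in oocytes (5.57). The difference between these 2 values, -3.70, did not pass (edgeR adjusted p = 0.0757). Fabp5, a fatty-acid carrier, was lower in both (-2.45 and -3.50), and Mei4, needed for meiotic DNA breaks, was higher in both (2.58 and 4.14). Mtfr2 lost its embryo call without 12-month rep 2 or vehicle rep 1, Fabp5 without 12-month rep 2, and Mei4 without 12-month rep 1 or either vehicle library.

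Some genes passed at 2 cells and not in the egg. Nfya, a subunit of the CCAAT-binding factor NF-Y, was at 24.6 and 21.5 CPM in the 12-month and 141 and 83.3 CPM in the vehicle embryos (-2.28, SE 0.34, edgeR adjusted p = 0.00662), while in oocytes its difference was -0.23 (adjusted p = 0.848). Atp2c1, a Golgi calcium pump, was at 361 and 287 against 78.5 and 82.6 CPM in embryos (2.01) and differed by -0.19 in oocytes (adjusted p = 0.918). Nfya lost its 2-cell call without either 12-month library, and Atp2c1 without 12-month rep 1 or either vehicle library. Whether the age difference itself changed between the stages was tested over 20649 genes, and 5 passed (0.0242%): Ins2, Obox2, Rpl37rt, Cwc22 and B020011L13Rik. Neither Nfya nor Atp2c1 was among them.

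Obox2, an oocyte homeobox gene, was the most abundant of the 5. MII oocytes held 12890 and 13220 CPM at 12 months and 11910 and 13350 CPM at 8 weeks, which overlap. In 2-cell embryos it was at 2452 and 2109 CPM in the 12-month and 193 and 186 CPM in the vehicle libraries (3.59, SE 0.42, edgeR adjusted p = 0.00166). The drug-treated young embryos spanned 406 to 3816 CPM, so both older libraries lay within their range. Its relative Obox1 overlaps it on the same strand, so the counts may mix family members.

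**Figure D2:**
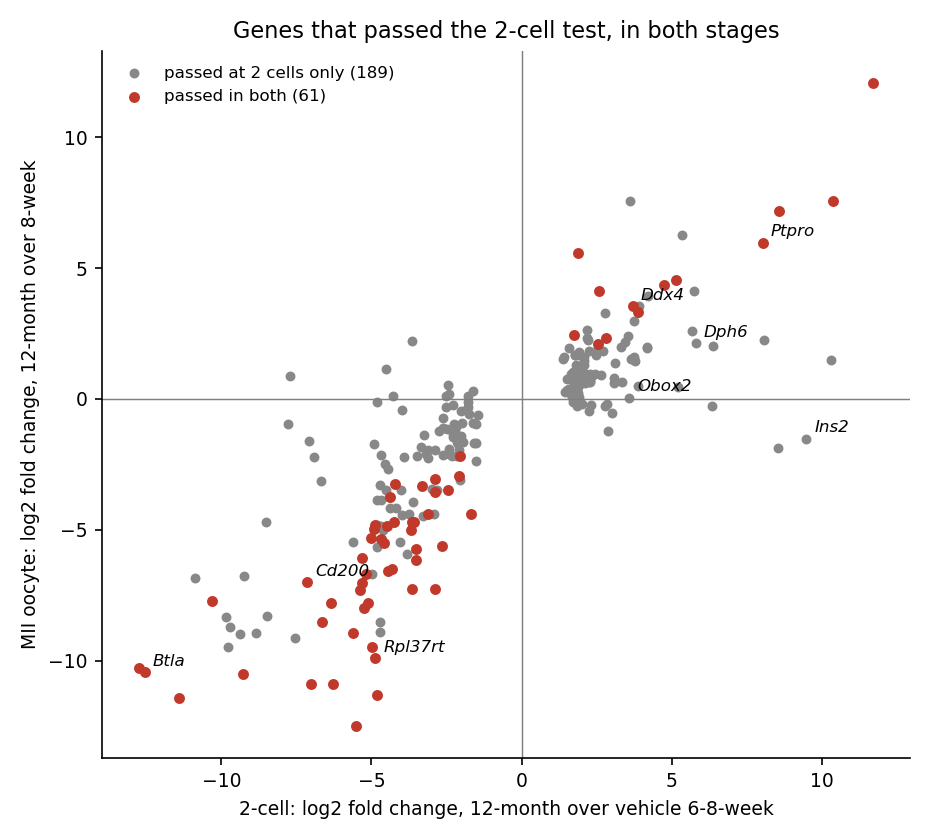
Age difference in 2-cell embryos (x axis) and in MII oocytes (y axis), both as log2 fold changes, for the 250 genes that passed the 2-cell test and were tested in oocytes; red points, 61 in all, passed in both. The red points lie in the upper right and lower left, while Obox2 and Ins2 are higher in older embryos but not in older oocytes.

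Several genes that passed lie side by side. Of the 272, 73 had a neighbour within 1 Mb that had passed in the same direction, forming 48 pairs. Of these pairs, 6 are among the 4 mitochondrial genes and 9 are overlapping gene models that can share reads, and the count has no background rate. No strain is given for the mothers of either age. The longest run was on chromosome 4 (mm10), where 5 zinc-finger genes, a family rich in DNA-binding repressors, and the predicted gene Gm21411 were all lower. From 145510759 to 147848366 these were Zfp990, Zfp981, Gm21411, Zfp989, Zfp534 and Zfp933, with log2 fold changes of -5.10, -4.46, -5.63, -4.31, -5.25 and -4.69. Zfp990 stood at 0.839 and 1.20 CPM in the 12-month and 26.3 and 44.0 CPM in the vehicle embryos, and Gm21411 at 1.06 and 0.967 against 61.7 and 38.7 CPM. Of these 6 genes, 5 were also called lower in the older oocytes, where Zfp933 had a difference of -2.16 (edgeR adjusted p = 0.228). The cluster is made of close copies, and how reads with several positions were counted is not given, so the members cannot be taken as separate measurements.

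On chromosome 16, Btla (45224315 to 45257670) and Cd200 (45382135 to 45409053) stood 124465 bases apart. Dclk1 and Nbea, on chromosome 3, were lower together (-4.97 and -2.07), as were the immunoglobulin genes Ighg2b and Ighg3 on chromosome 12 (-5.39 and -4.04). Mfap1a and Mfap1b, a pair of near-identical splicing-factor genes on chromosome 2, were at 19.5 and 16.5 against 63.3 and 90.1 CPM and at 3.53 and 6.85 against 97.2 and 119 CPM. On chromosome 17, the class I histocompatibility gene H2-T10 and the antisense gene BC023719, which overlap, were lower together (-3.80 and -6.36). Pairs that rose together were Aste1 and Atp2c1 on chromosome 9 (2.85 and 2.01) and Tctex1d1 with its overlapping antisense gene BB031773 on chromosome 4 (1.77 and 1.79). Both of these are overlapping models, whose reads cannot be told apart unless strand was used. Aste1 and BB031773 lost their calls without any 1 of the 4 libraries, Tctex1d1 and Nbea without either 12-month library or vehicle rep 1, and Mfap1a without either 12-month library or vehicle rep 2. Zfp989, in the run on chromosome 4, lost its call without either 12-month library, and H2-T10 without 12-month rep 2.

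Nnt, a mitochondrial transhydrogenase that is deleted in part in some laboratory strains, was low throughout. It was at 1.59 and 0.774 CPM in the 12-month libraries, 2.16 and 11.04 CPM in the vehicle libraries and at most 0.739 CPM in the drug-treated ones (-2.48, SE 1.32, edgeR adjusted p = 0.423). Vehicle rep 2 stood above the other libraries. A second model of the gene, on the same strand and overlapping this one, was at 0.265 and 0.116 against 0.540 and 2.62 CPM and may share its reads.

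The mitochondrial genome encodes subunits of the respiratory chain, its ribosomal RNAs and its transfer RNAs. Its transcripts took 9.65% and 6.51% of gene counts in the 12-month libraries and 4.13% and 3.18% in the vehicle libraries. The groups did not overlap, with a difference of 4.42 percentage points, but an exact two-sided permutation test of 2 against 2 gave p = 0.333, the smallest it can give. The drug-treated young libraries ranged from 1.64% to 5.93%, below both older ones. All 15 transcripts tested had a fitted value above 0, with a median of 1.53 against -0.07 for all genes, and 14 had an unadjusted p under 0.05. The 4 that passed, mt-Nd1, mt-Nd2, mt-Nd4l and mt-Nd5, are subunits of complex I and were all higher. Of all genes 0.469% passed as higher. The complex I transcripts mt-Nd3, mt-Nd4 and mt-Nd6 did not pass (1.91, 1.53 and 1.87, edgeR adjusted p = 0.182, 0.0656 and 0.0518). Coding transcripts of the other complexes were at 1.37 to 1.72. Of the complex I transcripts only mt-Nd4 lay in that range, and the others were above it. The SE of the coding transcripts was 0.33 to 0.64. The calls alone do not set complex I apart, and its difference from the other complexes was not tested. mt-Nd4l overlaps mt-Nd4 and mt-Nd5 overlaps mt-Nd6, so their reads may be shared.

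mt-Nd1 was at 18330 and 10290 CPM in the 12-month and 3866 and 2844 CPM in the vehicle libraries (2.09, SE 0.43, edgeR adjusted p = 0.0428). The most abundant transcript, mt-Cytb of complex III, was at 27570 and 15950 against 8055 and 8734 CPM (1.37, SE 0.35, edgeR adjusted p = 0.105). The ribosomal RNAs differed least: mt-Rnr2 was at 10400 and 7327 against 5688 and 2331 CPM (1.14), and mt-Rnr1 at 2114 and 1546 against 1545 and 560 CPM (0.80). In 12-month rep 1 every transcript was above its level in rep 2. Without rep 1 of the 12-month group or vehicle rep 2 none of the 4 calls held, and without vehicle rep 1 mt-Nd4l alone held; mt-Nd2 also lost its call with DESeq2 size factors or gene-only library sizes. The share difference was 2.85 points without 12-month rep 1 and 5.99 points without rep 2.

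No nuclear gene for the same respiratory chain passed. Of 77 tested, 30 were fitted above 0 with a median of -0.22 (7 at an unadjusted p under 0.05; 1 lower with DESeq2). Factors that maintain and express mitochondrial DNA had a median of -0.12 over 36 genes, with none called (3 at an unadjusted p under 0.05; 0 with DESeq2). In oocytes the 15 mitochondrial transcripts had a median age difference of 0.46, with edgeR adjusted p of 0.434 to 0.974. Their share there was 6.17% and 7.72% at 12 months against 1.81% and 6.48% at 8 weeks, with 8-week rep 2 above 12-month rep 1. Libraries were made from polyadenylated RNA, and how much of each mitochondrial transcript such a library captures was not tested. In a bulk library more copies per cell and a different mix of cells cannot be told apart.

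**Figure D3:**
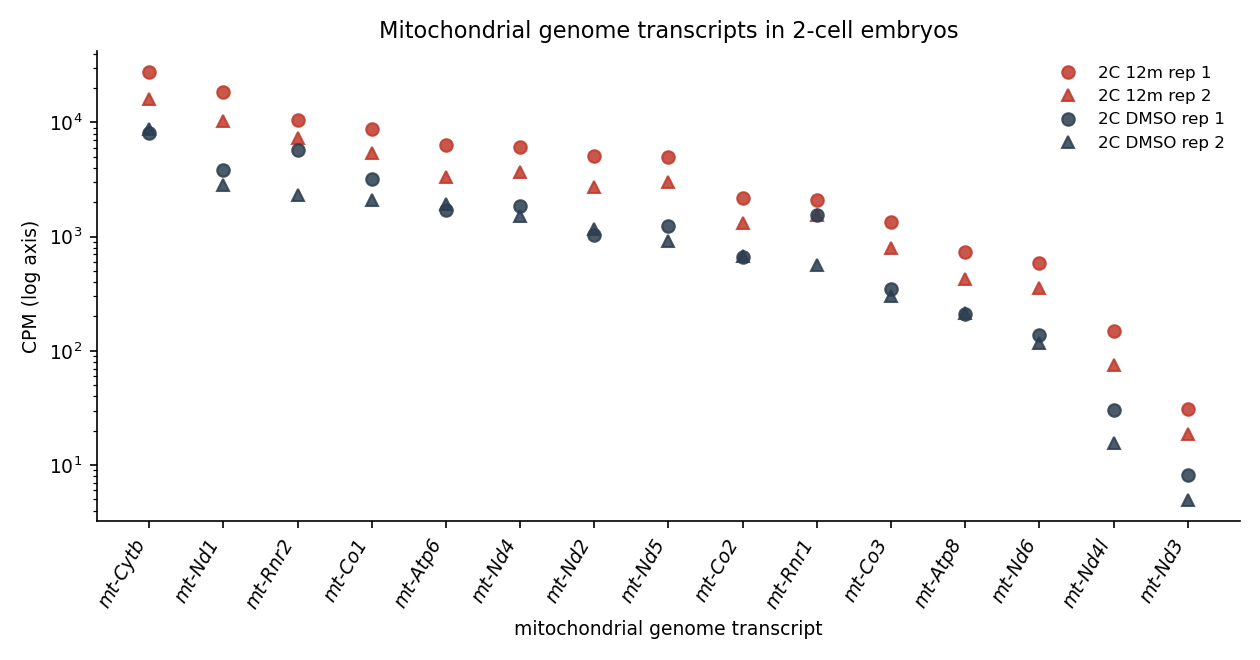
Level of the 15 mitochondrial genome transcripts in CPM (log axis), 1 point per 2-cell library; red, 12-month mothers, dark, vehicle (DMSO) embryos of young mothers, with circles for replicate 1 and triangles for replicate 2. Both red points lie above both dark points; for mt-Rnr1 the lower red point (1546 CPM) and the higher dark point (1545 CPM) nearly coincide.

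To place the older embryos between egg and 4-cell embryo, genes were sorted by libraries outside the comparison, 8-week MII oocytes and vehicle 4-cell embryos. The oocytes were untreated and the 4-cell embryos had DMSO. An effect of the vehicle could thus enter both the sets and the comparison, which was not tested. Those at least 4-fold lower at 4 cells are called oocyte-decaying and those at least 4-fold higher 4-cell-rising. The 5161 decaying genes tested had a median age difference of 0.24 at 2 cells, and 62.8% were fitted above 0. The 4535 rising genes had a median of -0.52, with 30.65% above 0. Over all genes these were -0.07 and 47.0%. Among the decaying genes 63 passed as higher (1.22%) and 79 as lower (1.53%), and among the rising genes 2 passed as higher (0.0441%) and 19 as lower (0.419%), against 0.469% and 0.746% of all genes. In MII oocytes the median age differences ran the other way, -0.15 for decaying and 0.22 for rising genes, against -0.01 for all genes. The 8-week oocytes of that comparison also defined the sets.

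Decaying genes took 67.5% and 66.0% of nuclear gene counts in the 12-month libraries and 61.3% and 62.9% in the vehicle libraries. Rising genes took 4.99% and 5.50% against 8.16% and 7.30%. Neither share overlapped between the 2 groups. In these libraries the older embryos held a larger share of RNA that declines after the egg and a smaller share of RNA that increases by 4 cells. The shares were not tested, and an exact permutation test of 2 against 2 cannot give a p below 0.333. Several drug-treated libraries overlapped the older embryos: the cycloheximide libraries had 65.8% and 67.5% of decaying and 4.81% and 5.82% of rising genes. In each of 4 level classes the decaying median was above and the rising median below that of all genes. Among genes above 50 CPM the medians were 0.30 for decaying, -0.32 for rising and 0.21 for all genes, and between 1 and 5 CPM they were 0.10, -0.60 and -0.21. The decaying median ranged from 0.16 without vehicle rep 1 to 0.33 without vehicle rep 2, and the rising median from -0.74 without 12-month rep 2 to -0.39 without vehicle rep 1.

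**Figure D4:**
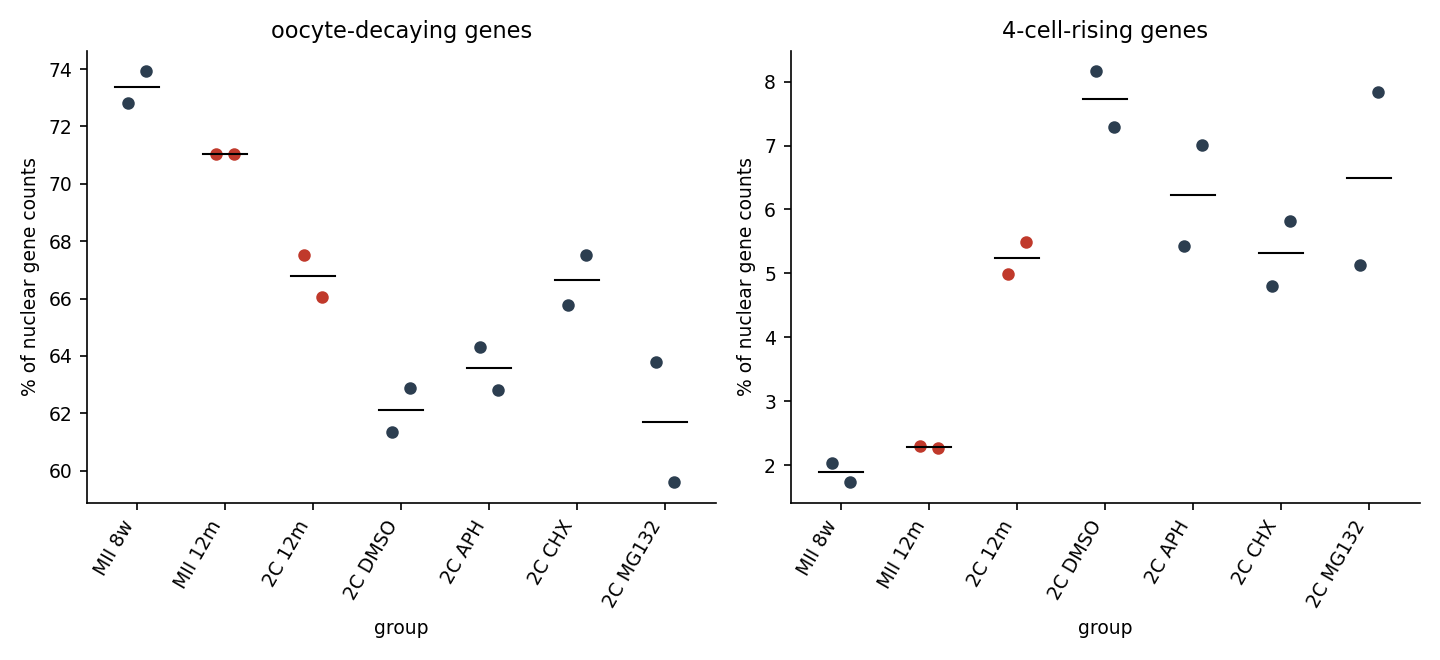
Share of nuclear gene counts, in percent, taken by oocyte-decaying genes (left) and 4-cell-rising genes (right) in each library; points are libraries, bars are means of the 2 libraries of a group, and red marks 12-month females. The 12-month 2-cell embryos lie above the vehicle embryos on the left (67.5% and 66.0% against 61.3% and 62.9%) and below them on the right; the 8-week oocytes were used to define the sets, and the axes do not start at 0.

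Fixed gene lists held few members that passed. Of 80 oocyte and maternal-effect genes tested, 57 were fitted above 0, with a median of 0.40 (0.35 to 0.40 under other scalings and 0.24 to 0.55 without any 1 library). Ddx4 and Obox2 passed, both higher, which is 2.5% of the list against 0.469% of all genes. The members below did not pass. The oocyte-secreted factor Gdf9 was at 313 and 306 against 170 and 204 CPM (0.73, edgeR adjusted p = 0.483), the tissue plasminogen activator Plat at 42.6 and 45.2 against 16.6 and 17.2 CPM (1.38, adjusted p = 0.0692), and Dppa3, which protects maternal methylation, at 10780 and 8805 against 4405 and 7376 CPM (0.73, adjusted p = 0.319). Dazl, a translation activator of the germ line, pointed the other way, at 246 and 235 against 606 and 571 CPM (-1.29, adjusted p = 0.0704). Mos, the kinase that holds the egg in metaphase, was at 3.44 and 1.97 CPM against 4.67 and 6.76 CPM, and at 306 to 449 CPM in MII oocytes of both ages.

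Genes of the 2-cell burst had a median of -0.38 over 61 tested, with 19 above 0 and none called (14 at an unadjusted p under 0.05, 12 of them lower; 4 lower with DESeq2). Nearest to the threshold was the Eif1a-like gene Gm2022, at 31.9 and 37.7 against 141 and 99.6 CPM (-1.79, edgeR adjusted p = 0.0559). Zscan4d differed by -1.03 (SE 0.47, adjusted p = 0.350), and Zfp352 by -0.79 (SE 0.79, adjusted p = 0.703). The members are mostly copies of a few families. The groups of Zscan4d did not overlap, yet its 2 vehicle libraries were further apart than the nearest libraries of the 2 groups.

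Among 38 transcription regulators of genome activation, Obox2 passed as higher and Nfya as lower, with a median of -0.33. Of 50 factors of maternal RNA decay and storage tested, 1 passed as higher, Ddx4, and 1 as lower. That is 2.0% each, against 0.469% and 0.746% of all genes, and 25 of the 50 were fitted above 0. Wtap, of the complex that writes m6A on RNA, belongs to neither list and was chosen after its values were seen: it was at 5493 and 4868 against 1565 and 1629 CPM (1.70, edgeR adjusted p = 0.0371), with drug-treated libraries at 591 to 1068 CPM. Its call was lost without any 1 library.

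Genes tied to ageing of the egg gave few calls. None of the 61 cohesin, spindle checkpoint and segregation genes passed (12 at an unadjusted p under 0.05; 1 higher and 2 lower with DESeq2), and their median was -0.08. The nearest were the kinetochore gene Ndc80, at 51.0 and 47.8 against 10.8 and 18.8 CPM (edgeR adjusted p = 0.0656), and the meiotic cohesin Smc1b, at 14.2 and 13.9 against 35.0 and 41.1 CPM (adjusted p = 0.127). The meiotic cohesin Rec8 was under 1 CPM in every library of both groups. Of 71 DNA repair genes, Mutyh, a glycosylase that removes misplaced adenine, was higher (6.97 and 7.002 against 1.08 and 1.03 CPM), with a call that was lost without any 1 library and with 2 of the other scalings. No p53 target or cell-death gene of 36 passed (4 at an unadjusted p under 0.05, 1 higher and 2 lower with DESeq2).

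Of 42 genes of oxidative-stress defence, the glutathione transferase Gstp1 was higher, at 150 and 174 against 23.9 and 14.7 CPM (3.07, edgeR adjusted p = 0.0448); its call was lost without any 1 library and with DESeq2 size factors. Sod2, the mitochondrial superoxide dismutase, was at 99.0 and 75.4 against 58.9 and 57.2 CPM (0.59, adjusted p = 0.398). The groups did not overlap for either gene, but the Sod2 difference did not pass. Atg10, which acts in the conjugation of autophagy proteins, was lower among 45 autophagy and mTOR genes (2.43 and 3.79 against 14.99 and 23.2 CPM) and lost its call without either 12-month library or vehicle rep 2. The 81 cytosolic ribosomal proteins had a median of -0.60 (-0.34 without vehicle rep 1), with 22 above 0 and none called (16 at an unadjusted p under 0.05, 15 of them lower; 1 lower with DESeq2). Among heat-shock genes, proteasome subunits, chromatin regulators, ribosome biogenesis, metabolism and senescence genes, none passed; 11, 1, 14, 10, 7 and 2 of them had an unadjusted p under 0.05, and DESeq2 called 0 to 4 in each list.

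Of 43 genes on a list of cell-surface proteins, mostly receptors, Ptpro was higher (2.33%) and Cd200, Btla and the urea transporter Slc14a1 lower (6.98%). Of all genes 0.469% passed as higher and 0.746% as lower. The median of the list was -0.05. Genes on this list were gathered with these values known, so the shares are a description only. No marker of other cells was called in any of 4 lists. At an unadjusted p under 0.05 were 2 cumulus, 1 blood, 1 oviduct and 3 sperm genes, and DESeq2 called at most 1 in a list. Single members spread widely: fitted values ran from -6.3 to 2.5 for cumulus, -7.0 to 1.6 for blood, -3.4 to 3.9 for oviduct and -7.6 to 3.2 for sperm genes. The lack of calls therefore does not show that these markers were unchanged. Summed levels of 23 cumulus and granulosa markers were 119 and 126 CPM in the 12-month and 132 and 126 CPM in the vehicle libraries, led by Serpine2, with 11 under 1 CPM and 2 at 0 in all 4 libraries. Blood markers, 20 genes, summed to 30.1 and 15.05 against 44.2 and 30.1 CPM, led by Hba-a1, with 14 under 1 CPM in all 4. Sperm and testis transcripts, 15 genes with 8 under 1 CPM and 1 at 0, summed to 15.2 and 16.6 against 19.3 and 27.5 CPM. Oviduct, fibroblast and epithelial markers, 19 genes with 7 under 1 CPM and 1 at 0, summed to 65.4 and 54.7 against 53.2 and 37.6 CPM. Whether such cells had a part in the immunoglobulin and receptor calls was not tested.

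Repeats took 19.8% and 20.4% of all counts in the 12-month and 19.9% and 20.8% in the vehicle libraries. The difference of -0.279 percentage points was within the spread, and an exact two-sided permutation test gave p = 0.667. Without mitochondrial counts the difference was 0.499 points. LTR subfamilies alone took 15.3% and 15.4% against 13.8% in each vehicle library, a difference of the opposite sign (1.57 points). Of 1016 subfamilies tested, 1 passed (0.0984%). RLTR12A, a long terminal repeat of the ERVK family of endogenous retroviruses, was at 5.78 and 4.37 CPM in the 12-month and 40.3 and 38.7 CPM in the vehicle libraries (-2.96, SE 0.36, edgeR adjusted p = 0.00351). The drug-treated libraries held 16.4 to 44.0 CPM, so every young library was above both older ones. In oocytes RLTR12A was at 2.04 and 1.19 against 43.3 and 58.5 CPM (-4.97, adjusted p = 0.0120). The 2-cell call was lost without 12-month rep 2.

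The other subfamilies leaned low, with a median of -0.22; of 75 with an unadjusted p under 0.05, 59 were lower and 16 higher. By class the medians were -0.48 for 35 SINE, -0.28 for 149 LINE and -0.17 for 606 LTR subfamilies. MERVL-int, the retrovirus of the 2-cell stage, was at 12590 and 13970 against 22100 and 13540 CPM, so the groups overlapped (-0.42, SE 0.49). Its promoter repeat MT2_Mm was at 7381 and 7241 against 9571 and 8992 CPM (-0.34). MTA_Mm, a repeat abundant in egg transcripts, was at 28490 and 25230 against 13060 and 15650 CPM (0.90, SE 0.35, edgeR adjusted p = 0.599). The LINE subfamily L1Md_T (367 and 413 against 434 and 444 CPM) and IAPEz-int (188 and 219 against 238 and 255 CPM) did not pass either. IAPEY2_LTR, with the lowest p among the higher subfamilies, was at 122 and 112 against 31.7 and 33.1 CPM (1.85, adjusted p = 0.0699).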

How the data were processed

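Each library had 1 deposited table of read counts, not normalized, over 55335 genes and 1153 repeat subfamilies. Per the labels' protocols the embryo and oocyte libraries were made by Smart-seq2, which copies whole transcripts from small inputs. The build is mm10, and cutadapt 1.16 and STAR were used, per the submitters' processing notes. Not given in the sources used here are the counter, its annotation, strand use and how reads with several positions were treated; values of gene copies and of overlapping or antisense genes are therefore uncertain. Without a stated spike-in, every change is relative within its library. Identifiers were matched to GENCODE without their version (55154 genes).

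The 10 libraries of the 5 groups of 2-cell embryos were fitted together in edgeR 4.0.16 (R 4.3.3): filterByExpr (minimum count 10, minimum total 15), TMM over genes and repeats, robust quasi-likelihood F-test, Benjamini-Hochberg adjustment over genes and, separately, repeats, threshold 0.05. The 4 MII libraries had a fit of their own, the difference between stages came from a fit of 8 libraries, and the decaying and rising sets from the 4 libraries of 8-week oocytes and vehicle 4-cell embryos. CPM use the TMM-scaled library of each fit. A group at 0 was set to 3 counts in all for bounds. Alternatives were DESeq2 1.42.0 (size factors, Wald test), 2 filters, other library sizes, a replicate block, only the 4 libraries compared, and leaving out each library. The range of the 8 young libraries and the overlap of stages without each library were added after seeing the data. The fit was tested on simulated data.

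Named genes were the 12 largest rises and falls among genes that passed at 10 CPM or more without overlap of groups, leaving out predicted symbols, up to 4 members that passed per list, fixed index genes and repeats, genes that passed in both stages or beside a neighbour, and members of counts of 5 or fewer; not all of these are printed. Other genes named (such as Jam2, Kif5b, Daam1, Atp2c1 and list members near the threshold) were chosen after their values were seen. The 25 gene lists and the comparison were chosen with earlier results of these data known. A result on 1 withheld gene is not reported here.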

Additional observations from a re-analysis of the deposited data

Results flagged for a closer look

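In 5 genes the age difference at 2 cells differed from that in MII oocytes by a test of the difference itself (edgeR interaction, log2 scale, 2-cell minus oocyte). Ins2, the insulin gene, was at 2.47 and 4.49 CPM in the 12-month and 0 in both vehicle embryos, at least 71.5-fold higher, but at 4.01 and 6.17 against 15.1 and 14.1 CPM in oocytes (10.8, SE 1.07, adjusted p = 0.0343). Drug-treated embryos of young mothers reached 7.91 CPM, above both older libraries. The 2-cell call of Ins2 was lost without either vehicle library and with a filter of at least 5 CPM in 2 libraries. The Obox2 difference was 3.52 (SE 0.32, adjusted p = 0.0188), since the oocyte levels of both ages overlapped.

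Rpl37rt, a retrocopy of a ribosomal protein gene that may share reads with its parent, was at 1.41 and 1.35 against 28.7 and 53.6 CPM in embryos and 0.272 and 0.273 against 312 and 217 CPM in oocytes (5.0, SE 0.57, adjusted p = 0.0376). It was lower at 12 months in both stages. Cwc22, a splicing factor, did not pass at 2 cells (25.02 and 33.3 against 65.9 and 46.2 CPM) and was at 31.6 and 33.5 against 2.85 and 1.60 CPM in oocytes (-4.82, SE 0.53, adjusted p = 0.0343). B020011L13Rik was at 263 and 224 against 61.6 and 34.4 CPM in embryos and 131 and 125 against 0.801 and 0.599 CPM in oocytes, higher at 12 months in both (-5.18, SE 0.49, adjusted p = 0.0188). Without 12-month oocyte rep 2 no gene passed this test.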

How the results depend on the processing

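The 2-cell count of 272 genes became 1047 with DESeq2's Wald test, 962 without a low-count filter and 116 with only the 4 libraries compared, and 86 to 183 when 1 library was left out. With a replicate block it was 438. Same-numbered libraries of the 12-month and vehicle groups deviated together by a correlation of 0.0467 over 8989 genes. This value does not cover the drug-treated libraries and cannot decide whether libraries with the same number share a batch. The oocyte count of 121 was 1017 by the Wald test, 788 without a filter, 188 with the block and 0 to 1105 without 1 library. The 5 stage differences became 158, 330 and 8 with the Wald test, no filter and a 5 CPM filter, and 0 to 31 without 1 library. The single repeat subfamily became 15, 7, 2 and 2 with the Wald test, no filter, the 5 CPM filter and the block, 0 with only the 4 libraries compared, and 0 to 1 without 1 library. The 61 genes shared by both stages became 0 to 139 without 1 library. The decaying median was 0.16 to 0.33 and the rising median -0.74 to -0.39 without 1 library. The repeat share difference was 1.57 points for LTR subfamilies alone, 0.499 without mitochondrial counts and -0.739 to 0.182 without 1 library. In each case the cause was not tested. The directions of the 135 named genes and subfamilies that passed held under every alternative in which they were tested. The block ended none of their calls; 66 of them lost their call with only the 4 libraries compared and 50 to 76 when 1 library was left out. Groups of 2 limit the precision of every value.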
